A study of Mus musculus with 7 samples.

Results

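This report follows 43 mouse genes that encode the kinetochore, the spindle assembly checkpoint, the chromosomal passenger complex and the shugoshins, out of 13376 rows in the expression table. The genes were listed by name and known function, with earlier results of these data in view, and all 43 names were found as rows of the table. Levels were measured in C2C12, an immortal line of mouse muscle precursors that can be switched to differentiation. The cells were proliferating and received either a scrambled siRNA (2 libraries, scrambled siRNA 1 and 2) or an siRNA against the long noncoding RNA lnc-31 (2 libraries, lnc-31 siRNA 1 and 2). The labels give no siRNA dose or time and no genetic alteration of the line. A second experiment in C2C12 cells recovered RNA with biotinylated antisense probes, either specific probes (called ODD in the labels) against lnc-31 or control probes against bacterial lacZ, with 1 library each, given as lists of peaks. The labels do not say if the 2 libraries of a group are separate cultures. P-values rest on the spread between such libraries, moderated for each gene by that of the other tested rows, and this spread may be technical.

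The kinetochore is the protein assembly that forms on each centromere and holds spindle microtubules. Its inner layer sits on nucleosomes that carry the histone variant CENP-A, and its outer layer, built from the KNL1, MIS12 and NDC80 complexes, grips the microtubule. Kinetochores that lack a proper attachment recruit the checkpoint proteins, which hold back the anaphase-promoting complex, while the chromosomal passenger complex corrects faulty attachments. Many of these genes are transcribed mainly in G2 and mitosis, so their messages are abundant in dividing myoblasts and decline when myoblasts leave the cell cycle.

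Levels are FPKM, that is, fragments per unit of transcript length and per unit of sequencing depth. Depth itself is unknown, so precision comes only from the spread between libraries. The row that names Mir31, the microRNA hosted at the lnc-31 locus, stood at 13.4 and 15.6 FPKM in the scrambled siRNA libraries and at 12.1 and 14.1 with lnc-31 siRNA (log2 fold change -0.14, limma adjusted p = 0.38). This row does not show that lnc-31 was depleted, so "lnc-31 siRNA" below means the library's label. Along principal component 1 (41.4% of variance), lnc-31 siRNA 1 scored 39.1 and the other libraries -16.3 to -10.4. All 7 myoblast markers were present, among them Des at 172 to 209 FPKM. The 3 adipocyte markers (Adipoq, Fabp4 and Plin1) and the 3 blood and endothelial markers (Ptprc, Pecam1 and Cdh5) had no row in the table, and of 3 epithelial markers only Krt8 had one, at 0.0993 to 0.54 FPKM.

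The kinetochore and checkpoint genes were lower in the lnc-31 siRNA libraries. Of the 43 genes, 16 fell and none rose (limma on log2(FPKM + 1), adjusted p under 0.05 over 11500 tested rows), which is 37.2% against 6.78% of all tested rows that fell and 5.64% that rose. Ranked by p in the same limma fit, the genes from rank 1 (Nuf2) to rank 33 (Bub1b) had an unadjusted p under 0.05. All of these lay on the lower side except Zwint, at rank 29. The share of all tested rows at this threshold was not counted, so these ranks only describe the genes and cannot be set against the whole table. The log2 fold change was below 0 in 40 of the 43 genes, and their median was -0.22, beside -0.01 over all tested rows. In 34 genes both lnc-31 siRNA libraries lay below both scrambled siRNA libraries, which is 79.1% against 31.7% of all tested rows. In 1 gene, Zwint, both lay above, against 28.5% of all tested rows, and in 8 genes the groups overlapped. The changes were small: among the 16 genes that fell the log2 fold change ran from -0.63 to -0.18, and 2 of them, Nuf2 and Cenph, were lower by 1.5-fold or more in FPKM. All 43 genes passed the filter of a mean of 1 FPKM, and the lowest mean in either group was 6.17 FPKM (Cenpo).

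Most of these calls rest on all 4 libraries. With any 1 library left out, Nuf2 and Cenph still fell (adjusted p of at most 0.032 and 0.037), and Mad2l1 did so only without lnc-31 siRNA 1 (adjusted p = 0.049). The other 13 lost their calls whichever library was omitted (limma adjusted p from 0.0501 to 0.19). In the order scrambled siRNA 1, scrambled siRNA 2, lnc-31 siRNA 1 and lnc-31 siRNA 2, omission left 2, 2, 3 and 2 genes that fell. The median over the 43 genes was -0.22, -0.20, -0.18 and -0.20 in the same order, so it was also below 0 without the library that stood apart. In the same libraries 7 of 7 differentiated muscle markers rose, with a summed level of 216 and 244 FPKM with scrambled siRNA and 389 and 402 with lnc-31 siRNA, and all 7 also rose with any 1 library left out. Of the 7 myoblast markers 3 rose (Myod1, Des and Cdh15) and 1 fell (Vcam1), of which at most 1 rise was left with 1 library out, while their summed level was 407 and 411 FPKM and then 459 and 470. Among 3 fibroblast markers in the table, Dcn and Col1a1 rose. Over all tested rows, for comparison with these marker counts, 5.64% rose and 6.78% fell. Neither of 2 osteoblast markers nor of 2 neural markers passed the test. The part of these shifts in the result was not tested. In bulk RNA, fewer dividing cells and less of each message per cell cannot be told apart.

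**Figure D1:**
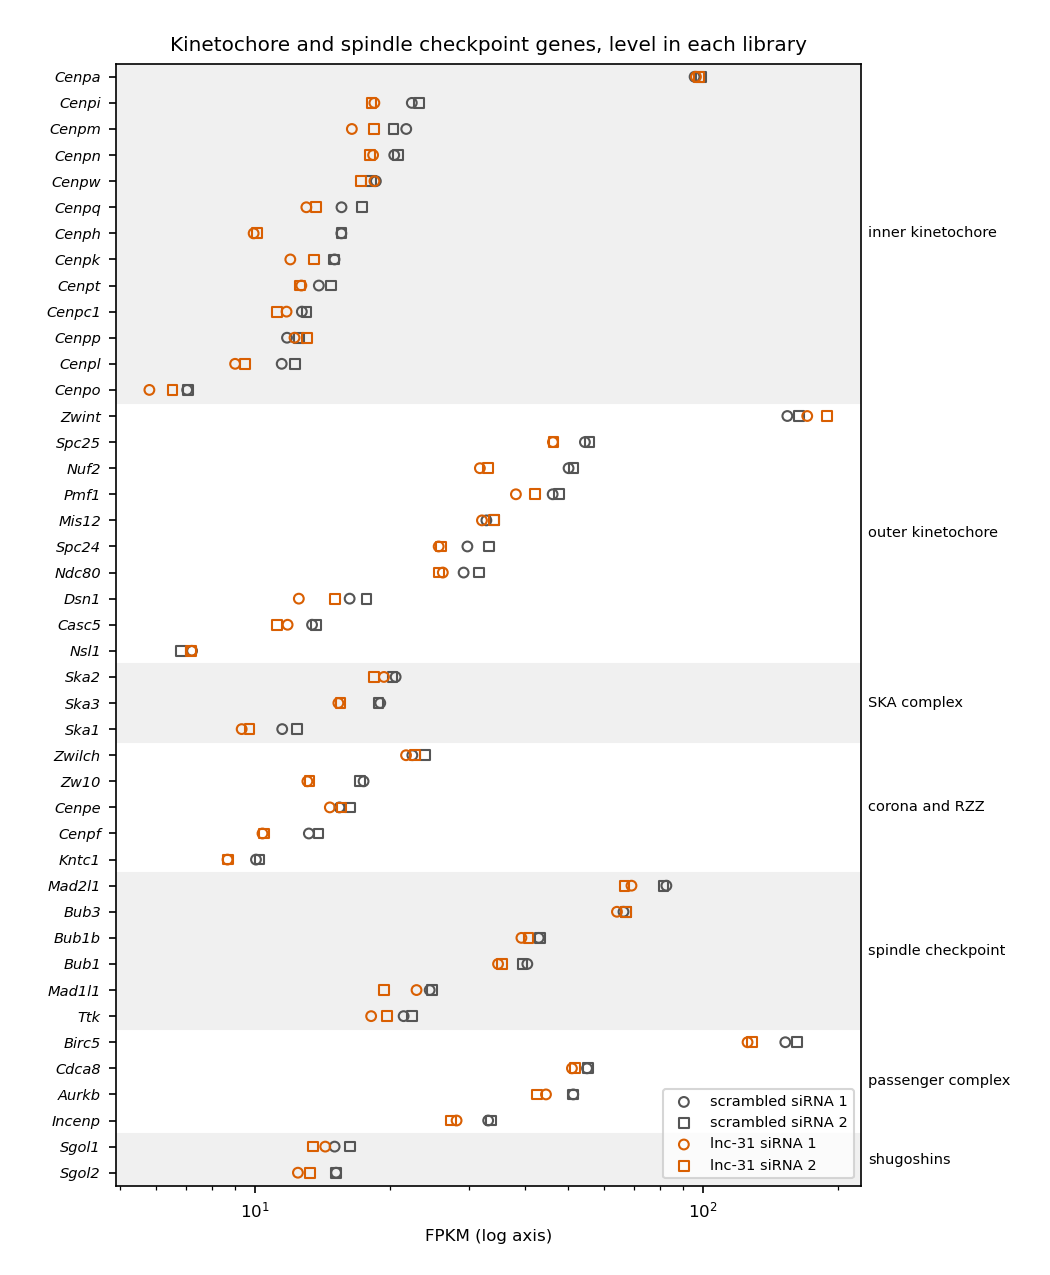
Level of each of the 43 genes in each of the 4 libraries, in FPKM on a log axis, grouped by role; grey symbols are scrambled siRNA, orange are lnc-31 siRNA, circles are library 1 and squares library 2. The orange symbols lie left of the grey ones in 34 genes, and Zwint shows the reverse.

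The genes differed more from each other than between groups. With scrambled siRNA their means ran from 7.02 FPKM (Nsl1) to 159 FPKM (Zwint), with a median of 20.6 over the 43 genes. Birc5 (157 FPKM) was next to Zwint at the top, and Cenpo (7.06 FPKM) next to Nsl1 at the bottom. These levels are per transcript length, so they can be compared between genes.

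The outer kinetochore holds the steepest fall, Nuf2, and also Zwint, whose values lay above the scrambled ones. Nuf2, a subunit of the microtubule-binding NDC80 complex (chromosome 1, 169497934 to 169531464, GRCm38), stood at 50.1 and 51.4 FPKM in the scrambled siRNA libraries and at 31.7 and 33.1 with lnc-31 siRNA. The groups stood well apart, 36.1% lower on average, with a log2 fold change of -0.63 (SE 0.044, limma adjusted p = 0.0051). Spc25, which anchors the same complex to the inner layers, fell from 54.5 and 55.7 to 46.2 and 46.4 FPKM (log2 fold change -0.25, adjusted p = 0.020). Its partner Spc24 fell by 0.27 on the log2 scale (adjusted p = 0.045), a call lost with no filter (0.055) and with a constant prior variance (0.074). Ndc80 itself had a log2 fold change of -0.22 and did not pass the test (adjusted p = 0.055).

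In the MIS12 complex, which links inner and outer layers, none of 4 subunits passed. Mis12 stood at 32.8 and 34.2 FPKM in the scrambled siRNA libraries and at 32.1 and 34.2 with lnc-31 siRNA, and the groups overlapped. Nsl1 was at 7.22 and 6.81, then 7.20 and 7.19 FPKM, also with overlap. Dsn1 and Pmf1 had log2 fold changes of -0.29 and -0.22 (adjusted p = 0.11 and 0.068). Casc5, which encodes KNL1, the scaffold on which checkpoint proteins assemble, had -0.22 (adjusted p = 0.056). Zwint, the KNL1-binding protein that recruits the RZZ complex, stood at 154 and 164 FPKM in the scrambled siRNA libraries and at 171 and 189 with lnc-31 siRNA. All of its lnc-31 siRNA values lay above the scrambled ones, but its log2 fold change of 0.18 (SE 0.063) did not pass the test (adjusted p = 0.13). It was called higher under quantile normalization, under median of ratios scaling and with the replicate block (adjusted p = 0.034, 0.0496 and 0.037).

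Of 13 inner kinetochore genes, 4 fell and none rose, with a median log2 fold change of -0.17. Cenph, a subunit of the constitutive centromere network (chromosome 13, 100759674 to 100775903), was at 15.6 FPKM in both scrambled siRNA libraries and at 9.92 and 10.1 with lnc-31 siRNA. This is 35.8% lower, with a log2 fold change of -0.59 (SE 0.049, limma adjusted p = 0.0056). Cenpi, which works in the same subcomplex, fell from 22.4 and 23.2 to 18.4 and 18.2 FPKM (log2 fold change -0.30, adjusted p = 0.018). Cenpl, which pairs with CENP-N on the CENP-A nucleosome, fell from 11.5 and 12.3 to 9.01 and 9.50 FPKM (-0.33, adjusted p = 0.029). The groups did not overlap in any of these. Cenpq, the fourth, also without overlap, fell by 0.28 (adjusted p = 0.049), a call lost with no filter (0.060) and with a constant prior variance (0.071).

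The gene of the centromeric histone itself, Cenpa (chromosome 5, 30666877 to 30674837), stood at 95.7 and 98.8 FPKM in the scrambled siRNA libraries and at 96.4 and 98.1 with lnc-31 siRNA. Its groups overlapped completely (log2 fold change -0.00038, SE 0.0402, adjusted p = 0.997), and its sign turned under other scalings. Cenpp (0.05) and Cenpw (-0.04) also had overlapping groups. Cenpk, Cenpm, Cenpn, Cenpo, Cenpt and Cenpc1 lay lower without overlap at log2 fold changes of -0.26 to -0.15, and none passed the test (adjusted p from 0.064 to 0.18).

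At the microtubule interface and the fibrous corona, 2 of 3 SKA genes and 2 of 5 corona and RZZ genes fell. The SKA complex helps kinetochores hold on to shortening microtubules. Ska3 fell from 19.0 and 18.8 to 15.3 and 15.5 FPKM (log2 fold change -0.28, adjusted p = 0.021) and Ska1 by 0.30 (adjusted p = 0.036), while Ska2 had -0.11 (adjusted p = 0.21). Zw10, which brings dynein and checkpoint proteins to kinetochores as part of the RZZ complex, fell from 17.5 and 17.2 to 13.1 and 13.2 FPKM (-0.37, SE 0.047, adjusted p = 0.012). The other RZZ subunits, Kntc1 (-0.20) and Zwilch (-0.06), did not pass (adjusted p = 0.066 and 0.51).

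Cenpf, a large corona protein that peaks in G2 and mitosis, fell from 13.2 and 13.8 to 10.4 and 10.5 FPKM (-0.34, adjusted p = 0.018). Cenpe, the kinetochore kinesin that carries chromosomes to the metaphase plate, stood at 15.4 and 16.3 FPKM in the scrambled siRNA libraries and at 14.7 and 15.6 with lnc-31 siRNA. Its groups overlapped and the log2 fold change was -0.06 (SE 0.056, adjusted p = 0.50).

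Of 6 checkpoint genes 2 fell. Mad2l1, which encodes the inhibitor MAD2 that sequesters CDC20, fell from 82.8 and 81.5 to 69.2 and 66.8 FPKM (log2 fold change -0.27, adjusted p = 0.018). The kinase gene Bub1 fell by 0.18, at the edge of the threshold (adjusted p = 0.049), and lost its call under quantile normalization, with the replicate block, with no filter and with a constant prior variance (adjusted p = 0.055, 0.0503, 0.056 and 0.087). Ttk (MPS1, the kinase that starts the signal), Mad1l1 and Bub1b had log2 fold changes of -0.20, -0.22 and -0.10 and did not pass (adjusted p = 0.077, 0.14 and 0.16). Bub3, the adaptor that both BUB kinases need, was at 66.4 and 67.4 FPKM and then 64.2 and 67.3, with overlapping groups.

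Of 4 passenger complex genes 3 fell. Birc5, which encodes survivin, fell from 153 and 162 to 126 and 129 FPKM (log2 fold change -0.30, adjusted p = 0.018). Incenp, the scaffold, fell from 33.1 and 33.5 to 28.2 and 27.4 FPKM (-0.25, adjusted p = 0.022), and the kinase Aurkb from 51.3 and 51.1 to 44.6 and 42.6 FPKM (-0.23, adjusted p = 0.0295). With a constant prior variance Aurkb lost its call (limma adjusted p = 0.060). Cdca8, which encodes borealin, had -0.10 (adjusted p = 0.14), though both of its lnc-31 siRNA values lay below the scrambled ones. The shugoshins, which protect cohesin at centromeres, lay lower without overlap, Sgol1 at -0.16 and Sgol2 at -0.22, and neither passed (adjusted p = 0.15 and 0.053).

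**Figure D2:**
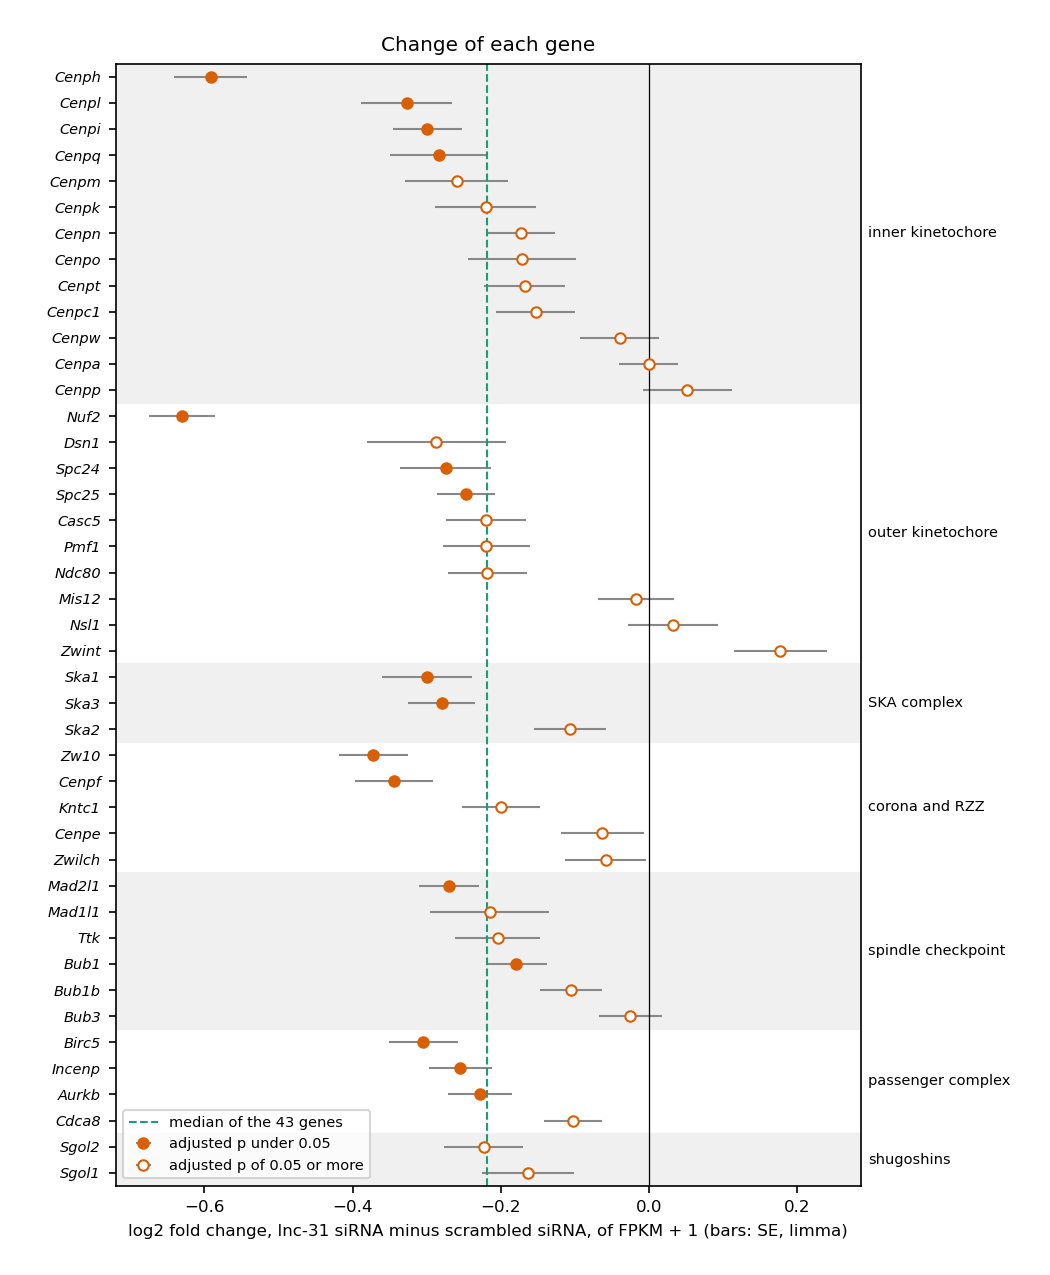
Log2 fold change of each gene (lnc-31 siRNA minus scrambled siRNA, on the log2(FPKM + 1) scale) with its standard error from limma, grouped by role; filled points have an adjusted p under 0.05. Filled points appear in every group but the shugoshins, and Cenpa, Mis12, Bub3, Nsl1, Cenpw and Cenpp lie nearest 0.

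Proportions between partner subunits do not change when a library is scaled by a single factor, though quantile normalization can change them. The ratio of their FPKM was taken in each library for 16 pairs that bind each other or share a complex. The groups did not overlap in 13 pairs (81.25%), 8 with a lower and 5 with a higher ratio in the lnc-31 siRNA libraries. Over all 903 pairs of the 43 genes the groups did not overlap in 66.7%, and over all pairs of tested rows in 63.2%. Most pairs of any kind thus lacked overlap, and whether partners differ from other pairs was not tested. With 2 libraries against 2, a two-sided exact permutation test cannot go below p = 0.333, which all 13 reached, so none can be called. The ratio of Nuf2 to Ndc80 was 1.72 and 1.63 with scrambled siRNA and 1.21 and 1.29 with lnc-31 siRNA. The ratio of Cenph to Cenpk was 1.04 in both scrambled libraries and then 0.828 and 0.744. In the other direction, the ratio of Zwint to Casc5 was 11.52 and 11.95, then 14.46 and 16.95, and that of Zwilch to Zw10 was 1.285 and 1.397, then 1.661 and 1.721. By contrast Spc25 to Spc24 (1.83 and 1.68, then 1.80 and 1.78) and Ska1 to Ska3 (0.604 and 0.658, then 0.608 and 0.626) overlapped.

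**Figure D3:**
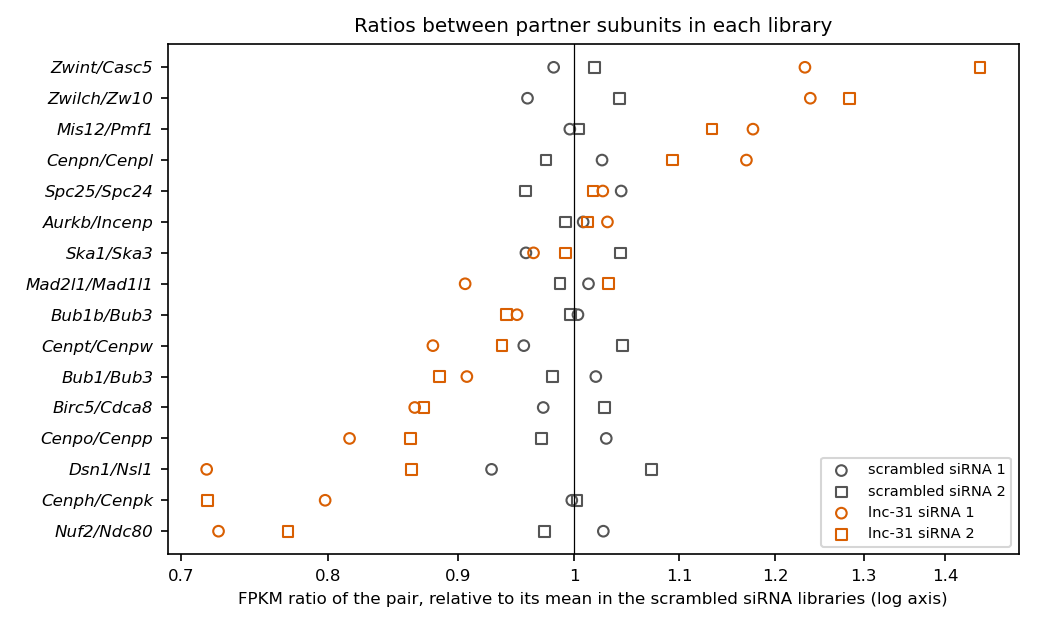
FPKM ratio of 16 pairs of partner subunits in each library, divided by the mean ratio in the scrambled siRNA libraries, on a log axis; grey symbols are scrambled siRNA and orange lnc-31 siRNA. Nuf2/Ndc80 and Cenph/Cenpk lie lowest in the lnc-31 siRNA libraries, and Zwint/Casc5 highest.

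Other genes of chromosome segregation were counted from fixed lists. Over all tested rows 6.78% fell and 5.64% rose. Of 26 other kinetochore-associated genes in the table, 8 fell (30.8%) and 1 rose (median log2 fold change -0.15). Those with the smallest p were Mis18a (from 24.3 ± 0.927 to 14.4 ± 0.649 FPKM, SD, n = 2 each; log2 fold change -0.72, limma adjusted p = 0.0056), the mitotic kinase Plk1 (-0.27), the CENP-A chaperone Hjurp (-0.33) and Cenpu (-0.40). Mis18a licenses centromeres for new CENP-A, and it also fell with any 1 library left out (adjusted p of at most 0.034), whereas the other three did not (0.055 to 0.10). Its partner Oip5, chosen after its values were seen, fell by 0.27 on the log2 scale (limma adjusted p = 0.045) and lost this call with any 1 library left out. Ndel1, a dynein regulator, was the 1 gene that rose (0.20, adjusted p = 0.047).

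Of 8 condensin genes 2 fell, Ncapg2 (-0.33, adjusted p = 0.013) and Ncaph (-0.20, adjusted p = 0.035), and the median was -0.15. The share that fell was 25% here and 26.7% in the cohesin list below, beside 6.78% of all tested rows. The condensin count depended on the setting: 5 fell under quantile normalization, likewise 5 under median of ratios scaling, and 1 with a constant prior variance. Of 15 genes of cohesin and separase 4 fell (median -0.14): the separase gene Espl1 (-0.29), Cdca5 (-0.43), which encodes sororin, Esco2 (-0.26) and Pds5b (-0.23). Of 19 genes of the anaphase-promoting complex and its partners 1 fell and 1 rose (median -0.02, and 0.002 under quantile normalization). These counts are near the shares over all tested rows, 6.78% and 5.64%. The 2 genes were the inhibitor Fbxo5 (-0.38, adjusted p = 0.010) and the subunit Anapc16 (0.37, adjusted p = 0.018). The next smallest p in this list were those of Ube2c and Anapc4 (-0.14 and -0.12, adjusted p = 0.073 and 0.12). With a constant prior variance 2 cohesin genes and 5 of the other kinetochore-associated genes fell, and Ndel1 was not called. In the anaphase-promoting list 2 genes fell under median of ratios scaling and 3 with the replicate block. Few of the calls held with a library left out. Of the other kinetochore-associated genes 1, Mis18a, fell whichever library was omitted. No condensin or cohesin gene fell when scrambled siRNA 1, scrambled siRNA 2 or lnc-31 siRNA 1 was omitted, and 1 of each did without lnc-31 siRNA 2. Fbxo5 lost its call without scrambled siRNA 2 (adjusted p = 0.064), Anapc16 kept its call only without scrambled siRNA 1, and Ndel1 lost it in each case.

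**Figure D4:**
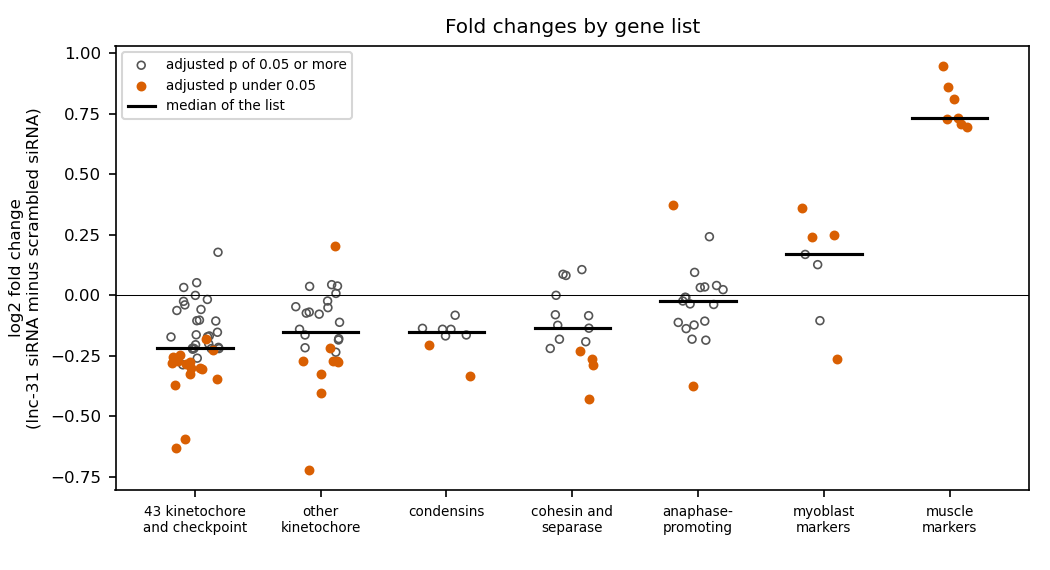
Log2 fold change of each tested gene (points, spread sideways for visibility) in 7 lists, with the median of each list as a bar; filled points have an adjusted p under 0.05. The medians of the kinetochore, condensin and cohesin lists lie below 0, that of the anaphase-promoting complex is -0.02, and the 7 muscle markers lie at 0.70 to 0.95.

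In the pull-down, 3 of the 43 genes held lnc-31 probe peaks in their gene bodies: Cenpe, Zwint and Cenpf. That is 6.98% of the genes, beside 1.77% of 12676 table rows with a RefSeq gene span. Cenpe was known to hold many peaks when the genes were listed, so these shares are a description. Without it 2 of 42 genes (4.76%) held lnc-31 probe peaks, 10 in number (1.68% of all). None of the 43 held a lacZ peak, beside 1.72% of table rows. With 1 library per probe set there is no replicate check and no test. The 3 genes together held 36 of the 596 lnc-31 probe peaks (6.04%), and none of the 36 overlapped a lacZ peak or the span of another RefSeq gene. Whether a peak lies in an exon or an intron was not analysed here, because the annotation used gives whole gene spans.

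Cenpe (chromosome 3, 135212563 to 135273540) held 26 peaks, the second highest number of any table row after Atrx with 30. They covered 8 kb, or 13.1% of its 61.0-kb span, from 2.44 to 58.2 kb after the 5′ end. Of the 26, 18 were 200 bases wide, the smallest width found, and the widest were 800 bases. The smallest of the values deposited with its peaks, read as p-values from their range, was 4.36e-07 at chr3:135243601-135243800, and the largest was 0.0096. At a deposited value of 0.001 or less, 11 of the 26 were left.

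Zwint (chromosome 10, 72654846 to 72674964) held 7 peaks over 4 kb, which is 19.9% of its 20.1-kb span and the largest covered share of the 3 genes. Its widest peak, at chr10:72658401-72659800, was 1400 bases. Its smallest deposited value was 3.25e-06, and 6 of the 7 peaks had 0.001 or less. Cenpf (chromosome 1, 189640606 to 189688107) held 3 peaks over 1 kb, between 28.1 and 33.5 kb from its 5′ end on the minus strand, and 1 of them had a value of 0.001 or less.

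The 3 genes with peaks differ in level. With scrambled siRNA Zwint was the highest of the 43 genes, while Cenpe ranked 29 and Cenpf 36. Cenpf fell, Cenpe had overlapping groups, and Zwint lay higher without passing the test, and differences between these changes were not tested. Birc5, at 157 FPKM but with a span of only 6.5 kb, held no peak. Of 20 genes with a longer span than Zwint 18 held none, where 1.77% of all matched table rows held a peak. A tie of peaks to level or span was not tested. Over table rows with a peak the median span was 43.3 kb, beside 21.4 kb over all matched rows and 19.8 kb over the 43 genes.

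**Figure D5:**
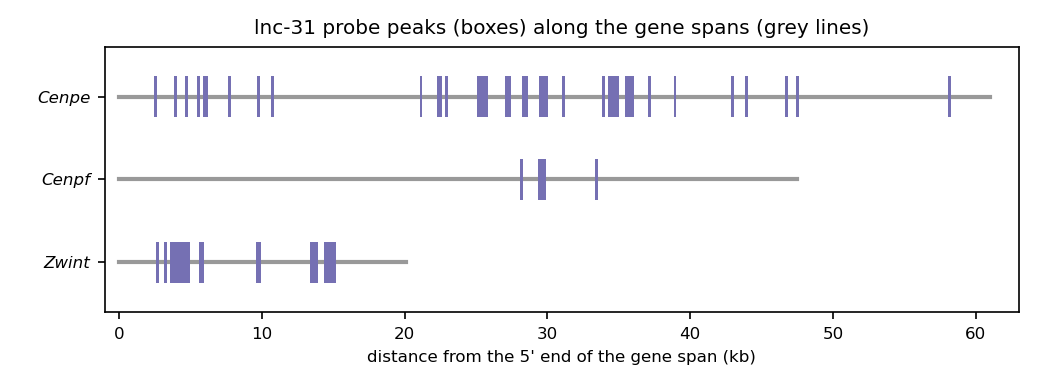
Positions of the lnc-31 probe peaks (boxes, drawn to scale) along the gene spans of Cenpe, Cenpf and Zwint (grey lines), as distance from the 5′ end in kb. Cenpe holds 26 peaks spread over most of its length, Zwint 7 and Cenpf 3, and no lacZ peak fell in these genes.

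The promoters of the genes were searched for letters tied to cell cycle transcription. The cell cycle genes homology region, commonly TTTGAA, is bound by MuvB-based complexes that repress these genes in resting cells and activate them before mitosis, and CCAAT is bound by NF-Y. Promoters were the RefSeq windows on GRCm38.p6 from 250 bases before to 50 after the start, and 37 of the 43 genes matched, with 42 windows. TTTGAA on either strand was present in 17 of the 42 windows (40.5%), beside 12.2% of 11299 windows of tested genes and 17.9% of all 32851. Within 50 bases of the start, a limit chosen after positions were seen, it was present in 13 windows (30.95%), beside 3.22% and 4.94%. TTTAAA, a variant form that is the same on both strands, was in 19.0% (beside 9.18% and 13.2%), and CCAAT on either strand in 69.0% (beside 38.2% and 37.4%). The motifs were searched separately and may share letters.

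TTTGAA was found in 5 of the 12 genes with a window that fell and in 11 of the other 25, and CCAAT in 7 of 12 and 18 of 25. Of the 13 genes with TTTGAA within 50 bases of the start, 3 fell (Cenpf, Spc25 and Ska3). The following stretches show these 3 and 4 of the 10 others, picked as illustrations after calls were known, aligned on the motif in capitals and read 5′ to 3′ in the direction in which it reads TTTGAA. In the first 4 genes this is the direction of the gene, with the motif starting 17, 3, 25 and 32 bases into the transcript, and in the last 3 it is the opposite strand, 9, 25 and 14 bases before the start.
Cenpa: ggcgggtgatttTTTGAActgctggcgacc
Cenpf: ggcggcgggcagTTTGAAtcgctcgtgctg
Spc25: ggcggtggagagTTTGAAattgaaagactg
Casc5: agggcggttagaTTTGAAtacttcagggac
Cenpn: cgccgaggtgctTTTGAAgccgccaatggc
Cenpw: ccgagtggtcgaTTTGAAttggccgccgga
Ska3: acgcgctacacaTTTGAAtcctgcgcaggc
In this order they lie at chr5:30666890-30666919 (plus strand), chr1:189688067-189688096 (minus), chr2:69206172-69206201 (minus), chr2:119047138-119047167 (plus), chr8:116921719-116921748 (minus), chr10:30200548-30200577 (plus) and chr14:57826160-57826189 (plus). Among the genes shown, Cenpa and Cenpw had overlapping scrambled siRNA and lnc-31 siRNA groups. A tie between the motif and the change was not tested.

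Nuf2, with the steepest fall, and Zwint, whose values lay above the scrambled ones, were picked as illustrations after calls were known. Their promoters are set beside each other below, with the 150 bases before each start on the gene's own strand and any match to the 3 motifs in capitals.
Nuf2: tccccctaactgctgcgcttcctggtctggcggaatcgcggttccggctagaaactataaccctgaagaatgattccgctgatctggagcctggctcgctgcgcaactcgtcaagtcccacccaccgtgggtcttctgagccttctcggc
Zwint: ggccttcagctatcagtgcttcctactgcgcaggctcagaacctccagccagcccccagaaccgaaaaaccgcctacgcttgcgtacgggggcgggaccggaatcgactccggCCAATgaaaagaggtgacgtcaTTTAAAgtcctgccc
The Nuf2 stretch (chr1:169531465-169531614, minus strand) holds none of these letters. The Zwint stretch (chr10:72654696-72654845, plus strand) holds CCAAT 37 bases and TTTAAA 15 bases before the start. Another CCAAT of Zwint, 14 bases into the transcript, lies past this stretch. A match is a description of the letters, and no match says only that they are not in this window.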

How the data were processed

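RNA from the siRNA experiment was sequenced after stranded mRNA library preparation, and RNA from the pull-down after NuGEN amplification, per the labels' protocols. The deposited expression values are the authors' FPKM. For these libraries the submitters' processing notes name Cuffdiff, TopHat2, BWA, Bowtie2, Trimmomatic and CASAVA with mm10, in no stated order and with no versions. For the pull-down the notes name Picard, TopHat2, Bowtie2, cutadapt, Trimmomatic and CASAVA, also with mm10. No caller of the peaks is named in the sources used here. The authors' peak lists hold an unnamed last column, whose entries, all above 0 and at most 0.01, were taken to be p-values. The input library was not analysed here. All sample columns were matched to labels (0 left over).

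Of 13376 rows, the 11500 with a mean of at least 1 FPKM entered limma 3.58.1 (R 4.3.3) as log2(FPKM + 1). Variances were moderated along the mean level (prior df 3.62), tests were two-sided, and p-values were adjusted by Benjamini and Hochberg over all of these rows, with calls at 0.05. This scale understates the changes of low genes. The fit was also run on simulated data, and the outcome is not given here. Gene spans and promoters were RefSeq's on GRCm38.p6, whose coordinates are those of mm10, and 12676 rows (94.8%) matched by symbol or synonym (Casc5, Sgol1 and Sgol2 by synonym). A peak counted for a gene at 1 shared base. Other software was Python 3.11.15 with pandas 2.3.3, numpy 2.4.6, and, for plots, matplotlib 3.10.9. The 43 genes and all lists were chosen with earlier results of these data known. Values in every library are given for the genes with the 12 smallest and 4 largest p and for those with peaks, and other lists are named by up to 4 smallest p. Alternatives were other pseudocounts, filters and scalings, a constant prior, the replicate number as a block, omission of each library, and other overlap rules.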

Additional observations from a re-analysis of the deposited data

How the results depend on the processing

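The direction of the median over the 43 genes was below 0 in every alternative run, and all 16 genes that fell kept their sign. With all 4 libraries the count of genes that fell was 12 (constant prior variance) to 20 (median of ratios scaling), and 12 genes were called in each such alternative. None rose except 1, Zwint, under quantile normalization, median of ratios scaling and the replicate block. With 1 library left out, 2 to 3 of the 43 genes fell, 97 to 242 genes of the whole table fell and 132 to 266 rose, beside 780 and 649 with all libraries, and the median over the 43 genes was -0.22 to -0.18. Such fits have fewer libraries, and the lone sample of a group is assumed to vary like the other group.

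The sign turned in 5 genes, none of which passed the test. Cenpa had log2 fold changes of 0.028 under quantile normalization and 0.0076 under median of ratios scaling. With 1 library omitted, Cenpa ran from -0.023 to 0.022, Mis12 from -0.061 to 0.027, Nsl1 from -0.0045 to 0.069, Bub3 from -0.058 to 0.0080 and Cenpw from -0.087 to 0.0079. The cause was not tested. The scalings moved the median of all tested rows by less than 0.01.

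With the replicate number as a block, 18 of the 43 genes fell and 1 rose, and 885 and 728 of the whole table. The labels do not say if same-numbered libraries were handled together. Their deviations from their group means correlated at -0.094, which with 2 libraries per group cannot decide it. Keeping peaks with a deposited value of 0.001 or less left 18 of the 36 lnc-31 probe peaks, in the same 3 genes. Requiring the whole peak inside the gene or extending genes by 1000 bases left all 36. Dropping peaks shared with lacZ could not change the count, because none of the 36 was shared. Depth is unknown from FPKM, which limits any statement on the lowest genes.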
